A study of Mus musculus with 12 samples.

Results

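Elane, Mpo, Prtn3, Ctsg, Ngp, Camp, Ltf, Mmp8 and Mmp9 encode proteins that neutrophils store in their granules. They are 9 of the 30702 mouse genes that had a feature of their own on the liver arrays, and each was measured by 1 feature. The rule that lists them goes by their role as primary, secondary or tertiary granule proteins. The list was chosen with earlier results of these data known. Expression was compared between knockout (KO) and wild-type (WT) livers for ENT3, the equilibrative nucleoside transporter that Slc29a3 encodes. KO females and KO males carried the genotype ENT3 -/- and WT females and WT males carried ENT3 +/+, with 3 mice in each of the 4 groups. All were C57BL6/J mice killed at 12 weeks of age, and each mouse gave total RNA of its snap-frozen liver to 1 array. Sex was read from the letter F or M in each title, and a mouse is named here by its genotype, that letter and its animal number. The sources used here do not give how the allele was made, which cells lost the transporter, or litter and housing.

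Neutrophils mature in the bone marrow, and their granule proteins are made in waves. Promyelocytes make the primary (azurophil) granule proteins, which include myeloperoxidase and the serine proteases. Myelocytes and metamyelocytes then make the secondary (specific) granule proteins, and the gelatinase of tertiary granules comes last. Transcripts of primary granule proteins are low or absent in circulating neutrophils, whereas those of later granules can last longer. The adult liver normally makes few granulocytes.

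Start-site windows of 300 bases, 250 before and 50 after the annotated start, were taken from RefSeq (GRCm38.p6) for 8 of the 9 genes, all but Mmp9. They were searched on both strands for the letters AGGAAGT, a core bound by PU.1-type factors that reads ACTTCCT on the opposite strand. They were also searched for TTGCNNAA, a core of C/EBP-type sites that reads TTNNGCAA on the opposite strand. The 2 motifs do not overlap in these windows and were chosen with the sequences in view. AGGAAGT was in the windows of 5 of the 8 genes, and in 9.35% of 32851 windows of all genes. It lay in all 4 primary granule genes, with its first base at -84 in Elane, -223 in Mpo, -94 in Prtn3 and -206 in Ctsg, and on the other strand at -221 in Mmp8. TTGCNNAA was in 3 of the 8, against 10.8% of all windows: at -138 in Ngp and -19 in Mmp8, and on the other strand at -11 in Ngp and -75 in Ltf. Camp had neither. The 250 upstream bases of 2 primary granule genes that rose, and of the 2 genes of later granules with the largest differences, are printed with these motifs in capitals.
Mpo, chr11:87793534-87793783, plus strand: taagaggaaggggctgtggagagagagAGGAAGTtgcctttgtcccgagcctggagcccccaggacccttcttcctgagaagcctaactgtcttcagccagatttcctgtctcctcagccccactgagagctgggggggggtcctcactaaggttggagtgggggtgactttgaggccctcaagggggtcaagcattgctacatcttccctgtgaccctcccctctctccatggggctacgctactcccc
Prtn3, chr10:79879417-79879666, plus strand: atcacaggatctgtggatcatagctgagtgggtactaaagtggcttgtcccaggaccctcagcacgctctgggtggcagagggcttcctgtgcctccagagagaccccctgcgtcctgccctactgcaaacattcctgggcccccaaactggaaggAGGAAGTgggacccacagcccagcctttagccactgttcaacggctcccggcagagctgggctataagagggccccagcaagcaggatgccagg
Ngp, chr9:110419558-110419807, plus strand: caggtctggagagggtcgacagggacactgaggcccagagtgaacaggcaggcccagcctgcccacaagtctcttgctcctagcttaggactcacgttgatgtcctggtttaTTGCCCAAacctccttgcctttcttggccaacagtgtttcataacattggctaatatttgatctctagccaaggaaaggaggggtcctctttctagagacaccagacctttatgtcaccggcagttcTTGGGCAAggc
Mmp8, chr9:7558179-7558428, plus strand: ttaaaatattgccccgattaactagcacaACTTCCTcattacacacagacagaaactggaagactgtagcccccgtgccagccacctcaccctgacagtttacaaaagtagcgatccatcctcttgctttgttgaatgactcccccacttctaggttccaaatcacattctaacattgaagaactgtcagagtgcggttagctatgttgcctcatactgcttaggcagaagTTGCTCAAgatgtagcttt
For the other genes with a match, 60 bases around it are enough to show the letters that flank it.
Elane, chr10:79886201-79886260, plus strand: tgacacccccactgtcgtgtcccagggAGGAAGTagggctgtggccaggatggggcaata
Ctsg, chr14:56102748-56102807, minus strand: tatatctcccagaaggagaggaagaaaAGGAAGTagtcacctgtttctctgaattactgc
Ltf, chr9:111019191-111019250, plus strand: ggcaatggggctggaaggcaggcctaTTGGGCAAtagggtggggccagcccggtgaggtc
Elane and Prtn3 lie next to each other on chromosome 10, and Ngp, Camp, Ltf and Mmp8 are all on chromosome 9. A match of letters is a description and does not show that a factor binds there.

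The deposited values are log2 signals, and differences below are KO minus WT on that scale with the standard error (SE) of a limma fit to all 12 arrays. A gene was called at a Benjamini-Hochberg adjusted p under 0.05 over 65956 transcript features. Slc29a3 checked the labels: it averaged 4.13 ± 0.04 in KO livers and 5.07 ± 0.18 in WT livers (SD, n = 6 each), with no overlap. In every liver of both genotypes it was below the 95th percentile of the negative controls, which limits this check. Alb and Apoa1, made by hepatocytes, stood at the scale's ceiling of 19.93 in every liver. Of 6 measures of the whole array 5 differed between genotypes (exact permutation tests, two-sided, BH-adjusted over the 6). Array medians were 3.79 to 3.89 in KO and 3.76 to 3.81 in WT (exact p = 0.015, adjusted 0.018), and the median of the positive control features averaged 8.12 ± 0.22 in KO and 8.51 ± 0.12 in WT (exact p = 0.01, adjusted 0.015). The median of the negative controls averaged 3.93 ± 0.04 in KO and 3.80 ± 0.03 in WT (exact p = 0.005, adjusted 0.01), and their 95th percentile, used below, also differed (exact p = 0.005, adjusted 0.01). The hybridisation spikes averaged 10.27 ± 0.21 in KO and 10.36 ± 0.16 in WT (exact p = 0.395). The poly-A spikes, added to the RNA before labelling, averaged 5.44 ± 0.36 in KO arrays and 6.30 ± 0.32 in WT arrays (SD, n = 6 each; exact permutation p = 0.005, adjusted 0.01; 0.005 is the smallest possible). The part of these array differences in the results was not tested beyond the refits with other scalings and with the poly-A covariate. The 95th percentile of the 5222 negative control features, used here as the level below which a probe is not well above background, was 6.40 to 6.83 in KO arrays and 6.20 to 6.39 in WT arrays. All 54 WT values of the 9 genes lay below it. Of the 54 KO values 9 lay above it: 5 of Ngp, 3 of Mmp8 and 1 of Ltf. The other 6 genes stayed below it in both genotypes, so their difference in signal is given with no fold. In whole liver, more granulocytes and more RNA per granulocyte cannot be told apart.

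Over both sexes, 6 of the 9 genes rose in KO livers and none fell. Ngp and Mmp8 differed most, by 3.68 and 2.07, followed by Ltf, Camp, Mpo and Prtn3. Elane, Ctsg and Mmp9 had positive differences that did not pass the test. The median difference of the 9 genes was 0.88, against 0.028 over all 30702 genes. Across all genes 5.81% were called higher in KO and 14.1% were called in either direction. All 6 KO livers lay above all 6 WT livers for Mpo, Ngp, Camp, Mmp8 and Mmp9, which is 5 of the 9 genes, against 2.34% of all genes. With 1 mouse other than KO M39 left out, 2 to 5 of the 9 were called, in fits that called 6.9% to 10% of all features. The count was 2 on leaving out WT M23, WT M33 or WT F38. Without KO M39 8 were called, all but Ctsg (adjusted p = 0.0530), in a fit that called 8.32% of all features, against 9.75% with all mice. KO M39 had the lowest KO value for each of the 9 genes, so leaving it out raises every difference by construction, and the larger count is no support for the calls. Its distance from the other KO livers did not pass Dixon's test for Ngp (0.587, below the 95% critical value).

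**Figure D1:**
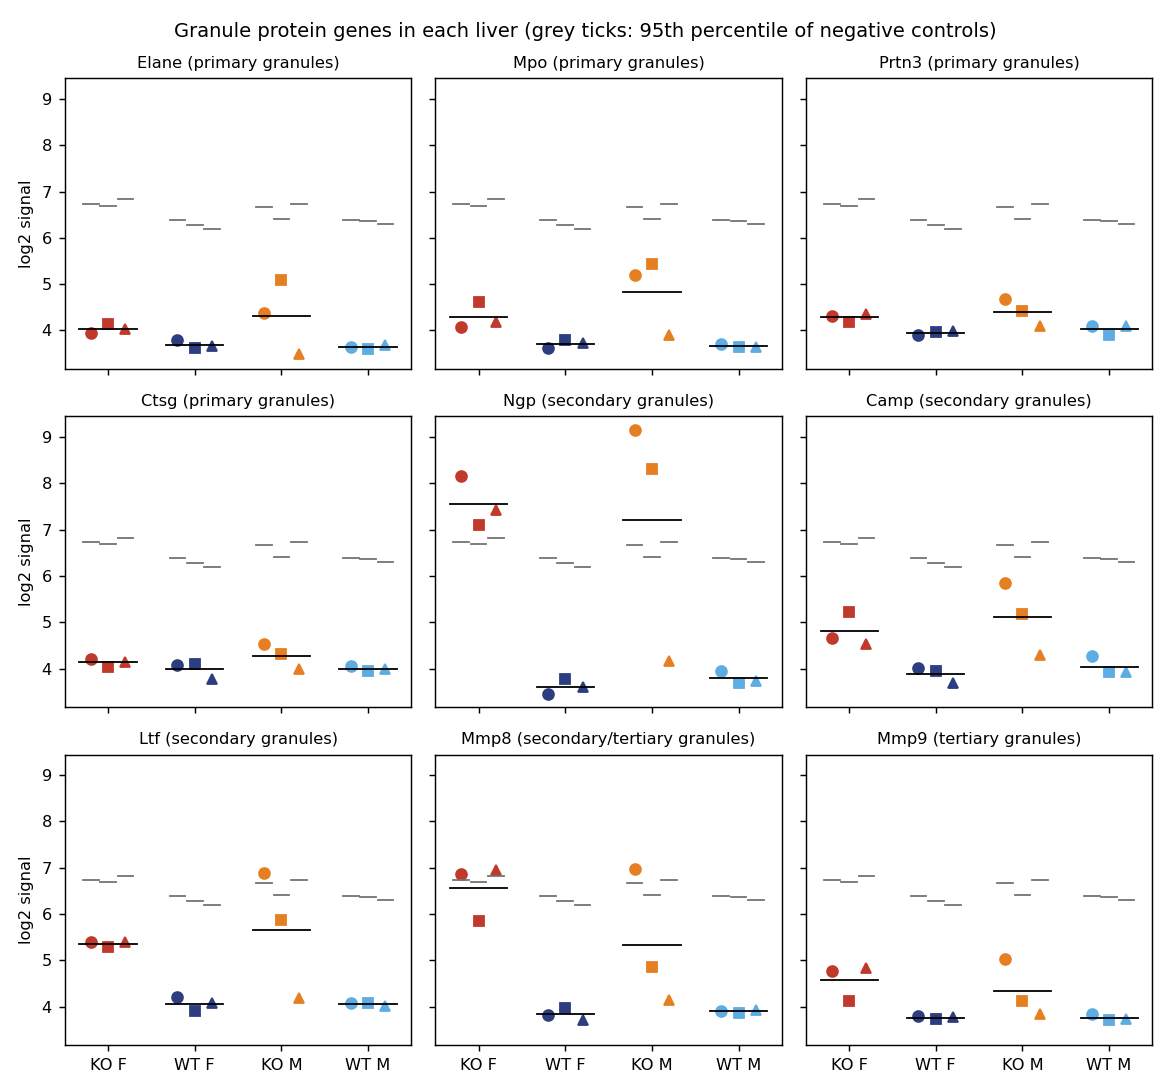
Log2 signal of each of the 9 genes (vertical axis) in every liver, in groups of 3 mice ordered KO F, WT F, KO M and WT M; a black line marks a group's mean and a grey tick the 95th percentile of the negative controls on that array. Ngp reached 9.16 in KO M18 while the 6 WT livers stayed between 3.46 and 3.95, and the signals of Elane, Mpo, Prtn3, Ctsg, Camp and Mmp9 stayed below the grey ticks in all 12 livers.

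Primary granule genes showed differences of at most 0.88 over both sexes, at low signal. Camp and Mmp9, genes of later granules, differed about as much as Mpo and also stayed below the negative control level. Mpo (Entrez gene 17523, chromosome 11), the peroxidase that makes hypochlorous acid, had signals of 4.08, 4.62 and 4.18 in KO females and 5.19, 5.43 and 3.90 in KO males, against 3.63, 3.80 and 3.72 in WT females and 3.71, 3.64 and 3.64 in WT males. Every KO liver was above every WT liver, and KO M18 and KO M19 stood highest. Mpo rose by 0.88 ± 0.23 (SE; 95% interval 0.37 to 1.39; adjusted p = 0.0377). The call is near the threshold: it was lost on leaving out any 1 mouse other than KO M39 (adjusted p = 0.0539 to 0.0870), after quantile normalization (0.80, adjusted p = 0.0613), and after centring on the array median (0.81, adjusted p = 0.0563) or on the negative controls (0.74, adjusted p = 0.0599). Against the negative controls of the same array, Mpo ranked at the 48.3 to 87.8 percentile in KO and the 40.9 to 52.0 percentile in WT.

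Prtn3 (Entrez gene 19152, chromosome 10), proteinase 3, had 4.31, 4.19 and 4.36 in KO females and 4.68, 4.42 and 4.09 in KO males, against 3.91, 3.97 and 3.99 in WT females and 4.10, 3.89 and 4.10 in WT males. All KO livers but M39 were above all WT livers. Prtn3 rose by 0.35 ± 0.09 (adjusted p = 0.0409), a smaller difference than Mpo with a smaller spread. Its call was kept without KO M39 or KO F40 and lost without any other mouse (adjusted p = 0.0603 to 0.0977). It was also lost after quantile normalization (0.26, adjusted p = 0.160), median centring (0.28, adjusted p = 0.116) and centring on the negative controls (0.21, adjusted p = 0.174).

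Elane (Entrez gene 50701, chromosome 10), neutrophil elastase, did not pass the test. Its signals were 3.95, 4.14 and 4.02 in KO females and 4.38, 5.09 and 3.49 in KO males, against 3.78, 3.62 and 3.67 in WT females and 3.65, 3.6 and 3.69 in WT males. KO M19 was highest, and KO M39 lay below all 6 WT livers. The difference was 0.51 ± 0.21 (95% interval 0.04 to 0.98; adjusted p = 0.181), and without KO M39 it was 0.72 and called (adjusted p = 0.00751). Ctsg (Entrez gene 13035, chromosome 14), cathepsin G, had the smallest difference of the 9, 0.22 ± 0.09 (adjusted p = 0.188). Its signals were 4.20, 4.04 and 4.15 in KO females and 4.53, 4.31 and 4.0 in KO males, against 4.07, 4.10 and 3.77 in WT females and 4.05, 3.94 and 3.99 in WT males. The groups overlapped, with 4 of 6 KO livers above all WT livers, and no single mouse left out brought a call.

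Secondary granule genes held the largest difference. Ngp (Entrez gene 18054, chromosome 9), neutrophilic granule protein, a cystatin-like protein known from mouse marrow, had signals of 8.16, 7.09 and 7.43 in KO females and 9.16, 8.31 and 4.16 in KO males, against 3.46, 3.77 and 3.61 in WT females and 3.95, 3.69 and 3.74 in WT males. The groups did not overlap: 5 KO livers stood at 7.09 or above and KO M39 only 0.21 above the highest WT liver. The difference of 3.68 ± 0.71 (95% interval 2.11 to 5.26; adjusted p = 0.0101) passed the test. Because no WT array was well above background, the fold is given against a floor. That floor, called the WT floor here, is the 95th percentile of the negative controls on WT arrays, 6.32 on average. Over both sexes the KO mean of Ngp, 7.38, was 2.09-fold above the WT floor, and the measured WT mean was 3.70. On KO arrays the same percentile averaged 6.68, and against it the fold would be smaller. The KO mean includes KO M39, which was not well above background. In KO livers it ran from the 57.4th to the 98.2nd percentile of the negative controls, and in WT livers from the 34.3rd to the 56.6th. The call over both sexes held with any 1 mouse left out (differences 3.20 to 4.45, adjusted p up to 0.0280).

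Ltf (Entrez gene 17002, chromosome 9), lactoferrin, an iron-binding protein, had 5.39, 5.29 and 5.39 in KO females and 6.89, 5.87 and 4.19 in KO males, against 4.21, 3.90 and 4.08 in WT females and 4.07, 4.07 and 4.0 in WT males. The 3 KO females lay within 0.11 of each other, and KO M39 lay within the WT range. Ltf rose by 1.45 ± 0.36 (adjusted p = 0.0305), and only KO M18 was well above background. The call was kept without KO M18 or KO M39 and lost without any other mouse (adjusted p = 0.0504 to 0.0672).

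Camp (Entrez gene 12796, chromosome 9), the cathelicidin precursor of an antimicrobial peptide, had 4.66, 5.22 and 4.53 in KO females and 5.85, 5.18 and 4.30 in KO males, against 4.0, 3.95 and 3.68 in WT females and 4.26, 3.93 and 3.93 in WT males. Every KO liver was above every WT liver, though KO M39 and WT M17 nearly met. Camp rose by 0.99 ± 0.23 (adjusted p = 0.0245). Leaving out WT M23 (adjusted p = 0.0607), WT M33 (adjusted p = 0.0595) or WT F38 (adjusted p = 0.0636) ended the call.

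Mmp8 and Mmp9 encode metalloproteinases that degrade matrix proteins, the neutrophil collagenase of specific granules and the gelatinase of tertiary granules. Mmp8 (Entrez gene 17394, chromosome 9) had 6.87, 5.85 and 6.96 in KO females and 6.97, 4.85 and 4.15 in KO males, against 3.82, 3.96 and 3.72 in WT females and 3.90, 3.86 and 3.93 in WT males. The groups did not overlap, and KO F13, F69 and M18 stood within 0.099 of each other at the top. Mmp8 rose by 2.07 ± 0.41 (95% interval 1.15 to 3.0; adjusted p = 0.0117) and stayed called with any 1 mouse left out (1.66 to 2.37, adjusted p up to 0.0318). Mmp9 (Entrez gene 17395, chromosome 2) had 4.76, 4.12 and 4.83 in KO females and 5.03, 4.12 and 3.84 in KO males, against 3.79, 3.72 and 3.77 in WT females and 3.84, 3.70 and 3.72 in WT males. Its groups did not overlap either, by a margin of 0.0020 between KO M39 and WT M17. Its difference of 0.69 ± 0.19 narrowly missed the threshold (adjusted p = 0.0506). Mmp9 was called without KO M18 (adjusted p = 0.0422), KO M39 (adjusted p = 0.0250) or KO F40 (adjusted p = 0.0268). With all mice it was called with a trended and robust variance, array weights, the mean of a gene's features, or no sex term (lowest limma adjusted p = 0.0237). It was not called under the 3 other scalings or with the poly-A covariate.

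Within females, Ngp and Mmp8 rose, which is 2 of the 9 genes, against 3.63% of all genes called higher and 9.33% in either direction. Ngp differed by 3.95 ± 1.0 (adjusted p = 0.0465), from means of 7.56 in KO females and 3.61 in WT females. Its KO female mean was 2.41-fold above the floor of the WT female arrays. On KO female arrays the same percentile was 6.69 to 6.83, and against it the fold would be smaller. Mmp8 differed by 2.72 ± 0.58 (adjusted p = 0.0252), from means of 6.56 in KO females and 3.83 in WT females. No fold is given, since KO F40 was not well above background and the KO female mean lies below the 95th percentile of the negative controls on KO female arrays. The 3 KO females lay above the 3 WT females for 8 of the 9 genes, all but Ctsg, against 17.7% of all genes. The median difference was 0.81, against 0.039 over all genes. The female call of Ngp was lost in 9 of 12 fits with 1 mouse left out, that is without any WT mouse or any KO female (adjusted p = 0.0694 to 0.133). Without a WT male its female difference stayed at 3.95, and the call was lost through the shared estimate of spread. The female call of Mmp8 was lost without WT F25 (adjusted p = 0.0577), WT F27 (adjusted p = 0.0631), WT F38 (adjusted p = 0.0889), KO F13 (adjusted p = 0.0747) or KO F69 (adjusted p = 0.0811).

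Within males no gene of the 9 passed the test (limma adjusted p = 0.135 to 0.423), although 7 had an unadjusted p under 0.05. Across all genes 0.72% were called higher in KO males and 1.66% in either direction. All 9 differences were positive, from 0.29 for Ctsg to 3.42 for Ngp, with a median of 1.06 against 0.013 over all genes. The 3 KO males lay above the 3 WT males for 6 of the 9 genes, all but Elane, Prtn3 and Ctsg, against 10.7% of all genes. Leaving out 1 mouse other than KO M39 also gave no call in males, in fits that called 0.244% to 1.42% of all features. Without KO M39, the lowest KO male for every gene, 5 were called: Ngp (4.95), Ltf (2.33), Mpo (1.65), Camp (1.47) and Elane (1.09). That fit has 2 KO males, whose spread is taken from the shared estimate, and it called 0.634% of all features in males, against 1.09% with all mice. In females it called 5 of the 9, with Mpo, Camp and Ltf joining Ngp and Mmp8, and 5.71% of all features, against 6.19% with all mice. Leaving out a male does not change the female differences (Mpo 0.58, Camp 0.93 and Ltf 1.29 in both fits). The added female calls come through the shared estimate of spread and are no support. With another mouse left out 0 to 3 were called in females, in fits that called 2.4% to 6.92% of all features.

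**Figure D2:**
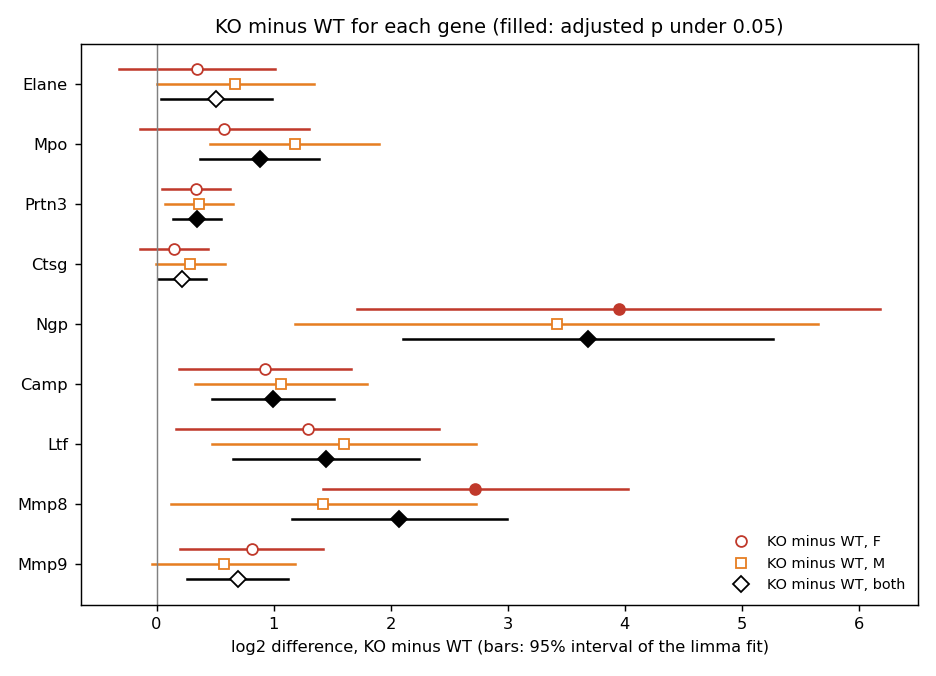
KO minus WT log2 difference of each gene (horizontal axis) in females, in males and over both sexes, with bars for the 95% interval of the limma fit and filled symbols for an adjusted p under 0.05. Ngp lies furthest right at 3.68 over both sexes and Ctsg nearest to 0 at 0.22; filled symbols are 6 over both sexes, 2 in females and none in males.

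The genotype difference was not shown to depend on sex. The difference in females minus that in males ran from -0.60 for Mpo to 1.30 for Mmp8, and none of the 9 passed the test (limma adjusted p = 0.847 to 0.994; none had an unadjusted p under 0.05). The intervals are wide, from -0.54 to 3.14 for Mmp8 and from -1.62 to 0.42 for Mpo. Among all 65956 features 0.00152% were called. Females also did not differ detectably from males over both genotypes, with differences of -0.24 for Mpo to 0.59 for Mmp8 (limma adjusted p = 0.626 to 0.985).

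The signals of KO livers were spread more widely than those of WT livers in these genes. All WT values were below the negative control level, so their small spread does not show that WT livers were alike. The limma fit takes 1 spread per gene for all 4 groups, although these spreads differ. The SD of Ngp was 1.74 over the 6 KO livers and 0.16 over the 6 WT livers, that of Mmp8 was 1.21 in KO and 0.09 in WT, and that of Ltf was 0.88 in KO and 0.10 in WT. The mean signal of the 9 genes was 5.16, 4.95 and 5.09 in KO females and 5.85, 5.29 and 4.01 in KO males, against 3.78 to 3.87 in WT females and 3.81 to 3.95 in WT males. KO M18 was highest of the KO livers for 7 genes and KO M19 for Elane and Mpo. KO M39 was lowest for all 9, though it was above all WT livers for 5 of them. Its Slc29a3 signal, 4.16 and under the negative control level, lay within the KO range, and so did its poly-A spikes at 5.29.

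The KO livers did not rank alike for every gene. KO M19 was the highest liver for Mpo and Elane and came second for Ngp, Ltf, Prtn3 and Ctsg. For Mmp8 and Mmp9 it ranked 5 of 6, with Mmp8 at 4.85, while KO F69 and KO F13 came next after KO M18. In KO F40 Camp was second highest and Mpo ranked 3, whereas Ngp and Ltf ranked 5. These ranks describe 6 livers and were not tested.

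**Figure D3:**
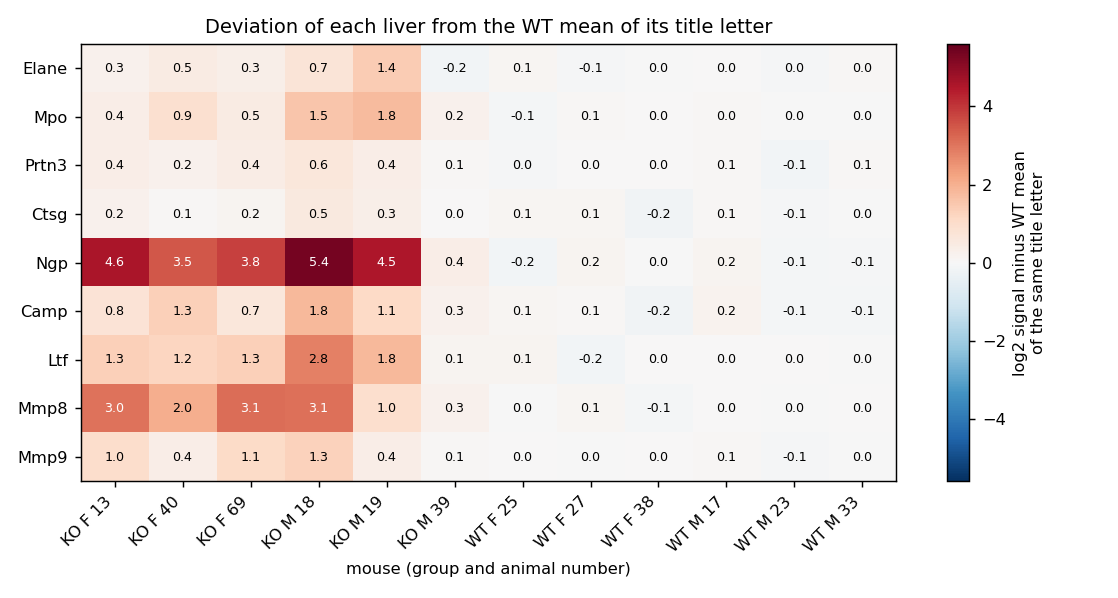
Log2 signal of each gene in each liver minus the WT mean of the same sex, with KO livers on the left and WT livers on the right, as colour and number. KO M18 is 5.4 above the WT male mean for Ngp, the KO M39 column runs from -0.2 to 0.4, and the printed values of WT livers run from -0.2 to 0.2.

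Other granule and granule-handling genes were listed by role, and 29 of 30 had a feature of their own. Of these 7 rose and 1 fell, with a median difference of 0.27. Cybb, the catalytic subunit of the phagocyte oxidase held in specific granule membranes, had 11.7, 13.7 and 11.6 in KO females and 11.2, 9.15 and 8.90 in KO males, against 7.21, 7.14 and 7.88 in WT females and 7.72, 7.42 and 6.75 in WT males. It rose by 3.67 ± 0.48 (adjusted p = 0.00185) with no overlap, and macrophages express it too. Ctsc, the protease that activates granule serine proteases, rose by 1.52 ± 0.20 (adjusted p = 0.0020) from means of 11.3 in KO and 9.83 in WT. Chil3, a chitinase-like protein of neutrophils and macrophages, rose by 4.35 ± 0.74 (adjusted p = 0.0056), with a KO mean 3.70-fold above the WT floor. Chil3 was well above background in 5 of the 6 KO livers. It followed the pattern of Ngp: 8.58, 8.74 and 8.04 in KO females and 9.64, 9.55 and 4.71 in KO males, against 3.95, 4.01 and 3.97 in WT females and 4.01, 3.55 and 3.67 in WT males. Chil3 has a near-identical copy in Chil4, so its probes may read both. Cd177, a neutrophil surface protein also held in specific granules, rose by 0.59 ± 0.16 (adjusted p = 0.0439) under the negative control level. The other genes called higher, Cyba, Itgb2 and Anxa1, are named after their values were seen, with differences of 1.69, 4.20 and 1.22.

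Serpinb1a, an inhibitor of elastase, proteinase 3 and cathepsin G, was the gene of this list that fell. Its signals were 5.51, 5.48 and 5.16 in KO females and 6.24, 5.92 and 5.33 in KO males, against 7.11, 8.01 and 8.35 in WT females and 6.21, 7.31 and 6.97 in WT males. It fell by 1.72 ± 0.26 on the log2 scale (adjusted p = 0.00315), with an overlap only between KO M18 and WT M17. In the list of 12 measured protease inhibitors Serpinb1a was also the single called gene, and the list's median difference was 0. A gene at the scale's ceiling on every array has a difference of 0, so this median does not show that the inhibitors were unchanged. The list's mean, which includes Serpinb1a, was 11.63 to 11.74 in KO females, against 11.78 to 11.94 in WT females. In males it was 11.61 to 11.74 in KO, against 11.71 to 11.77 in WT. Lyz2, lysozyme, had a difference of 1.84 ± 0.69 (adjusted p = 0.138) and Srgn, the proteoglycan that packs granule proteins, one of 0.69 ± 0.22 (adjusted p = 0.0840). Prss57, a serine protease of primary granules, differed by 0.11 ± 0.05 (adjusted p = 0.234), and Padi4, which citrullinates histones, by 0.07 ± 0.05 (adjusted p = 0.443). Lcn2, the lipocalin of specific granules, stood at the same highest value, 11.24, on 5 KO arrays and 2 WT arrays. Its difference of 1.43 ± 0.55 (adjusted p = 0.149) is therefore limited at the top.

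Of 16 regulators of granulocyte formation 5 rose and 1 fell, with a median of 0.16. Spi1, which encodes PU.1, had 8.95, 9.47 and 8.63 in KO females and 8.01, 7.0 and 6.44 in KO males, against 5.63, 5.49 and 5.94 in WT females and 5.64, 5.61 and 5.49 in WT males. It rose by 2.45 ± 0.24 (adjusted p = 0.000695), with a KO mean 3.39-fold above the WT floor, and it is expressed in macrophages as well. Spi1 was well above background in 5 of the 6 KO livers. Csf3r, the receptor for granulocyte colony-stimulating factor, rose by 0.71 ± 0.13 (adjusted p = 0.00921) from means of 5.17 in KO and 4.46 in WT, under the negative control level. Cebpe, the factor needed for secondary granule genes, had means of 3.94 in KO and 4.06 in WT, a difference of -0.12 ± 0.09 (adjusted p = 0.452). Gfi1, a repressor needed for granulocyte differentiation, had means of 4.08 in KO and 4.01 in WT, a difference of 0.07 ± 0.04 (adjusted p = 0.295). Neither was well above background in any liver. The other called genes, named after their values were seen, were Cebpb (0.73), Cebpd (1.17) and Runx1 (0.50), which were higher, and Cebpa, which fell by 1.13 on the log2 scale and is also made by hepatocytes.

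Genes of mature neutrophils were read beside the granule genes. Of 15 with a feature 7 rose and none fell, with a median of 0.55. S100a8, a calcium-binding protein abundant in neutrophils, had 15.8, 14.7 and 16.3 in KO females and 16.1, 12.8 and 8.59 in KO males, against 5.50, 6.10 and 6.09 in WT females and 6.57, 5.29 and 5.0 in WT males. As with the granule genes, KO M39 was the lowest KO liver, here with a gap of 2.02 to the highest WT liver. S100a8 rose by 8.30 ± 1.02 (adjusted p = 0.00155) and S100a9, its partner, by 7.73 ± 1.02 (adjusted p = 0.00206). Retnlg, a resistin-like protein of neutrophils, rose by 4.58 ± 0.81 (adjusted p = 0.00685), with a KO mean 7.89-fold above the WT floor. Retnlg was well above background in 5 of the 6 KO livers. Itgam, an integrin chain of myeloid cells, rose by 1.82 ± 0.22 (adjusted p = 0.00127). Ly6g, the surface marker of mouse neutrophils, differed by 0.72 ± 0.24 (adjusted p = 0.0905), and Cxcr2, a chemokine receptor, by 0.23 ± 0.11 (adjusted p = 0.228). Both were below the negative control level in all 12 livers. Csf3r stands in this list and in that of the regulators, and Mmp25 stands here and among the granule genes.

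Markers of other cells were read beside these results. Of 11 Kupffer cell genes 8 rose and 1 (Cd163, named after its values were seen) fell, with a median of 2.48. Their mean signal was 9.84 to 12.2 in KO females, against 7.68 to 8.75 in WT females, and 8.97 to 10.4 in KO males, against 7.49 to 8.39 in WT males. Of 8 monocyte genes 2 rose, with a mean signal of 6.87 to 7.53 in KO females, against 6.03 to 6.27 in WT females, and 6.28 to 7.17 in KO males, against 5.89 to 6.10 in WT males. Of 7 megakaryocyte genes 3 rose (5.36 to 6.18 in KO females, against 4.58 to 4.65 in WT females, and 4.90 to 5.73 in KO males, against 4.64 to 4.73 in WT males). Of 11 proliferation genes 1, Mki67, rose, by 2.13 (adjusted p = 0.0437), and the list's mean was 4.34 to 5.39 in KO females, against 3.99 to 4.11 in WT females, and 4.17 to 4.92 in KO males, against 3.99 to 4.08 in WT males. None of 9 erythroid genes was called, and their means were 4.74 to 5.12 in KO females, against 4.48 to 4.67 in WT females, and 4.81 to 5.68 in KO males, against 4.84 to 4.93 in WT males. Among markers that define these lists, Clec4f of Kupffer cells lay above all WT livers in 1 of 6 KO livers and Vsig4 in 5. The same count was 5 for Ly6c2 and 4 for Ccr2 (monocytes), and 1 for Klf1 (erythroid). For Mki67 and Top2a (proliferation) it was 6, which holds for 2.34% of all genes. The part of these cells in the signal of the 9 genes was not tested.

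Mast cells, basophils and eosinophils also carry granules. None of the 10 mast cell and basophil genes was called (median difference 0.07), and their mean signal was 3.79 to 3.84 in KO females, against 3.69 to 3.76 in WT females, and 3.75 to 3.81 in KO males, against 3.70 to 3.72 in WT males. Their list mean was thus higher in KO within each sex, without overlap, at a level where the negative controls had a median of 3.93 in KO and 3.80 in WT. Mcpt8, a protease of basophils, and Cpa3, the carboxypeptidase of mast cells, stayed below the negative control level in every liver. None of the 5 eosinophil genes was called (median -0.001), and Epx and Prg2, their peroxidase and major basic protein, lay at 3.26 to 3.87 over all livers. Of 10 hepatocyte genes 1, Asgr1 (named after its values were seen), fell, by 0.84 on the log2 scale (adjusted p = 0.0434), and the list's mean was 18.03 to 18.5 in KO livers and 18.3 to 18.5 in WT livers.

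**Figure D4:**
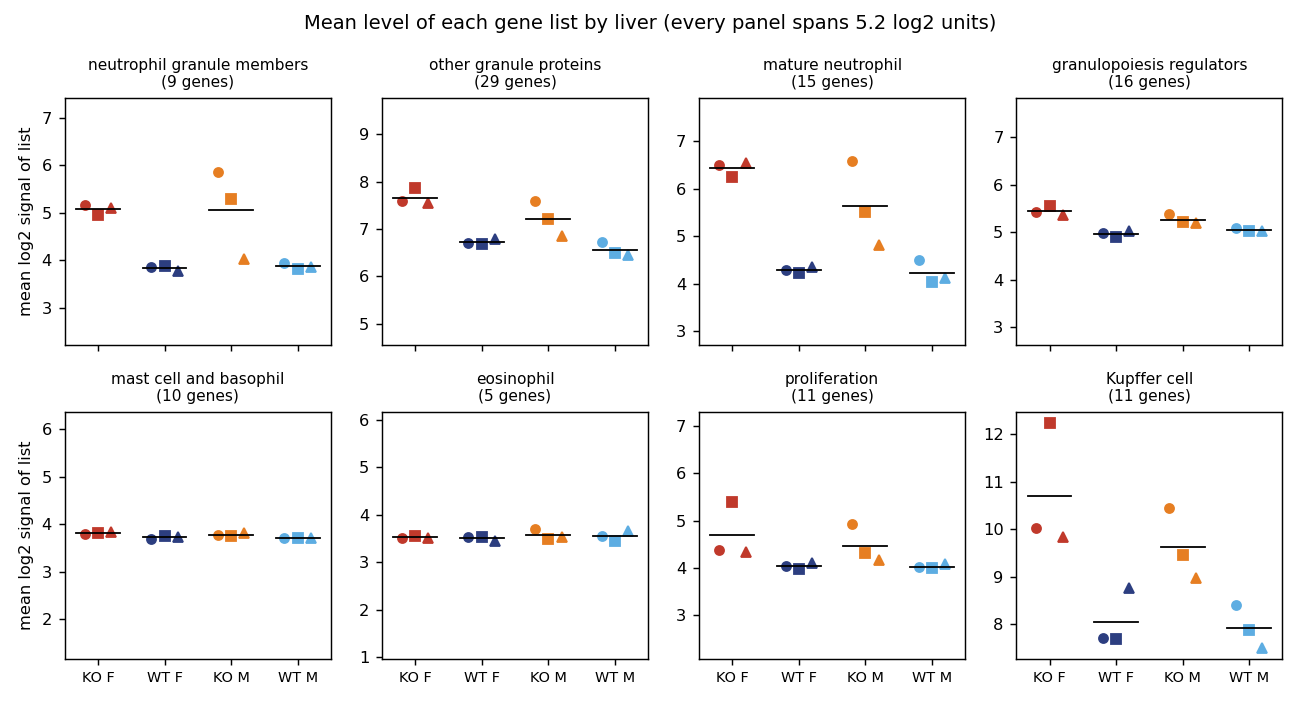
Mean log2 signal over each gene list (vertical axis) in every liver, grouped as KO F, WT F, KO M and WT M, with a black line at the group mean and panels of equal span. KO M39, the triangle among KO M, is at 4.01 for the 9 granule genes, close to the WT livers at 3.78 to 3.95, and at 8.97 for Kupffer cell genes, where WT livers reach 8.75; the mast cell and basophil list lies between 3.69 and 3.84 in all 12 livers.

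The poly-A spikes ran from 5.10 to 6.06 in KO arrays and from 5.98 to 6.81 in WT arrays. Within each sex the genotypes did not overlap: 5.10 to 5.26 in KO females, against 5.98 to 6.15 in WT females. In males they ran from 5.29 to 6.06 in KO, against 6.40 to 6.81 in WT. With the mean of the spikes added to the model none of the 9 genes was called, while only 3 of 65956 features were. Spike level and genotype are hard to separate in this fit, so the signs and sizes of its differences are no support. All 9 differences stayed positive, with Ngp at 6.82 (adjusted p = 0.204), Mmp8 at 2.39 (adjusted p = 0.554), Ltf at 2.73 (adjusted p = 0.342), Camp at 1.62 (adjusted p = 0.431), Mpo at 2.07 (adjusted p = 0.176) and Prtn3 at 0.48 (adjusted p = 0.590). Centring each array on its negative controls, whose median was 3.93 in KO and 3.80 in WT, lowered every difference by 0.14 and kept Ngp, Mmp8, Ltf and Camp called.

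For each gene the 2 protein-coding genes with the most similar pattern over the 12 arrays were taken from 1945 genes with an SD of at least 0.5. The arrays fall into genotypes, so a high Pearson r describes these livers only. Ngp was most like Chil3 (r = 0.987) and Chil4 (r = 0.957), and Ltf most like Chil3 (r = 0.944) and H2ac15 (r = 0.931). Mmp8 was most like Retnlg (r = 0.989) and Fgr (r = 0.973), and Mmp9 most like Pglyrp1 (r = 0.985) and Jchain (r = 0.966). Camp was followed by Adgrg6 (r = 0.963) and Tlr13 (r = 0.950). Among the primary granule genes the most similar were, for Elane, Cyp51 (r = 0.942) and Nsdhl (r = 0.913), for Mpo, Rrm2 (r = 0.923) and Chil4 (r = 0.906), for Prtn3, Pik3r5 (r = 0.909) and Chil3 (r = 0.886), and for Ctsg, Sqle (r = 0.883) and Gtf2a2 (r = 0.810). Chil3, Chil4 and H2ac15 belong to families of near-identical copies and their own signals are uncertain.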

How the data were processed

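Each of 12 livers was measured on its own array. The authors deposited log2 signals per feature, for which the submitters' processing notes name Transcriptome Analysis Console. The sources used here do not give the background correction, normalization or genome build. Gene symbols came from the platform annotation, updated through RefSeq synonyms: of the transcript features 31258 carried 1 symbol, 1492 more than 1 and 33206 no symbol, and 30688 of the 30702 genes were found in RefSeq. A gene's value is that of its feature with the highest mean. The 6732 control features were kept out of the tests.

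The means of the 4 groups were estimated jointly by limma 3.58.1 (R 4.3.3) with lmFit, moderated by eBayes on 8 residual degrees of freedom, and p-values were adjusted by Benjamini-Hochberg over 65956 features. Nothing was filtered for low signal. The script was tested on simulated data with known differences. For array measures, genotype labels were permuted exactly among mice of the same sex, two-sided, over 400 arrangements. Nothing in the sources used here gives an array batch, and the labels do not state how mice were related, so p-values measure the spread between these mice. The number of arrays limits the precision.

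The 9 genes and 12 further lists were chosen with earlier results of these data known, so no list is independent evidence of its direction. Most genes named outside the 9, and the defining markers of each list, were fixed by role. The genes of most similar pattern were named by their correlation, and the text says where a gene was named after its values were seen. Features with similar patterns were the 2 with the highest Pearson r per gene. Figures were drawn with matplotlib 3.10.9 in Python 3.11.15. Alternatives were 3 scalings, a trended and robust variance, array weights, a filter on dim features, the mean of a gene's features, a poly-A spike covariate, no sex term, and each mouse left out.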

Additional observations from a re-analysis of the deposited data

How the results depend on the processing

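No paired analysis was possible because the groups share no animal numbers. Of 181 recomputed KO against WT differences of the 9 genes over both sexes, 127 kept their side of the threshold, 46 lost a call, 8 gained one and none changed sign. In females 150 of 172 kept it, 17 lost, 4 gained and 1 turned, Ctsg centred on the negative controls (-0.034). In males 167 of 172 kept it and 5 gained. Only Ngp and Mmp8 stayed called over both sexes with each mouse left out. Leaving out a mouse lowers the residual degrees of freedom.

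Among all features, KO against WT called 6432 over both sexes (3 with the poly-A covariate; 4553 to 6599 with 1 mouse left out) and 4083 in females (6481 centred on negative controls, 74 with the covariate; 1581 to 4563). In males 716 were called (1089 after quantile normalization, 1275 centred on negative controls, 1087 with array weights, 1682 with the dim filter, 0 with the covariate; 161 to 938). The interaction called 1 (0 after quantile normalization, with the trended variance and with array weights, 4 median centred, 19 centred on negative controls, 22 with the dim filter, 14 over mean features, 5 with the covariate; 0 to 55). Females against males called 808 (1423 with the dim filter, 15 with the covariate; 215 to 1159).

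Of the 9 genes, the 6 called over both sexes became 1 (Ngp, the single one left) with the dim filter and 0 with the covariate (2 to 8 with 1 mouse left out). The dim filter kept features above the 95th percentile of the negative controls on every array of at least 1 group. Ngp passed it only through KO females, where it is high, so its calls under this filter are no support. The 2 called in females became 1 after quantile normalization (Ngp at adjusted p = 0.0518), 1 with the dim filter and 0 with the covariate (0 to 5). In males the 0 became 5 without KO M39 and ran from 0 to 5. The interaction and the comparison of females with males called 0 of the 9 throughout.

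Differences that were not called and changed sign were few. Females minus males turned with the covariate for Elane (0.57), Mpo (0.44), Camp (0.13) and Ltf (0.60). With 1 mouse left out it ran from -0.32 to 0.077 for Elane, turning without KO M19, from -0.50 to 0.17 for Ltf, turning without KO M18, and from -0.68 to 0.57 for Ngp, turning without KO M39 or KO F13. The interaction ran from -0.74 to 0.060 for Elane (turning without KO M19), from -0.18 to 0.11 for Prtn3 (without WT M23, KO M18 or KO F40), from -0.54 to 0.23 for Camp and from -1.04 to 0.31 for Ltf (without KO M18), and from -1.0 to 1.51 for Ngp and from -0.0063 to 0.59 for Mmp9 (without KO M39). The cause was not tested.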
